A study of Homo sapiens with 17 samples.

Results

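A set of 9 protein-coding genes was followed across 2 diffuse large B cell lymphoma lines, Karpas-422 and WSU-DLCL2. The genes are CFAP70, CCDC14, PDE1B, LUC7L2, MBP, LHX4, TPH1, TCF4 and OSBPL9, 9 of the 63677 genes listed in the count files. They were chosen because their RNA was much higher in Karpas-422 after A-485, an inhibitor of the acetyltransferase activity of p300 and CBP, than in the same line without it. Their difference in that contrast is therefore how they were picked, and it is described here without a test. RNA was sequenced in 5 groups of 3 libraries. These were Karpas-422 with A-485 for 48 h, untreated Karpas-422, WSU-DLCL2 with A-485 for 48 h, 3 WSU-DLCL2 clones labelled BCL11A knockout, and untreated WSU-DLCL2. The sources used here do not give the concentration of A-485 or the way BCL11A was disrupted. The groups called untreated here are named DMSO, a vehicle, in the rule that set the comparisons. Their sample titles name no treatment. Each knockout library is 1 clone, and no unedited clone is among the samples. Nothing states that replicates came from separate cultures, so p-values measure the spread between libraries, which may be technical.

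Acetylation of histone tails by p300 and CBP marks active enhancers and promoters, and loss of that activity lowers transcription of many genes that depend on such enhancers. Other genes can gain RNA in the same cells, and the 9 genes here are of that kind in Karpas-422. They share no pathway. CFAP70 belongs to the axoneme of motile cilia, and CCDC14 is a centriolar satellite protein that restrains centriole duplication. PDE1B is a calcium- and calmodulin-activated phosphodiesterase that breaks down cyclic AMP and cyclic GMP, and TPH1 is the rate-limiting enzyme of serotonin synthesis outside the brain. LUC7L2 associates with the U1 small nuclear ribonucleoprotein and affects the choice of splice sites. LHX4 is a LIM homeodomain transcription factor of the developing pituitary and motor neurons, and TCF4 is an E protein that acts in B cell and plasmacytoid dendritic cell development. MBP encodes myelin basic protein and, from an upstream start, the golli proteins found in lymphoid cells. OSBPL9 is an oxysterol-binding-protein relative that moves lipids between membranes.

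The sequence before the start of the genes is shown for the 4 members whose level was higher with A-485 than without it in the libraries of both lines. Each window holds the 250 bases before an annotated start, 5′ to 3′ on the strand of the gene, from RefSeq on GRCh38.p14. Capitals mark matches on either strand to 5 motifs, none of which overlap in these windows. The TATA motif was searched as the letters TATAAA. The CCAAT box was searched by its name's own letters. The GC box was searched as GGGCGG. For the cyclic AMP response element the letters were TGACGTCA, and for the AP-1 site they were TGANTCA. The windows are chr10:73358865-73359114 on the minus strand for CFAP70, the first of its annotated starts, and chr3:123961230-123961479 on the minus strand for CCDC14. They are chr1:180230014-180230263 on the plus strand for LHX4 and chr11:18046270-18046519 on the minus strand for TPH1.
CFAP70: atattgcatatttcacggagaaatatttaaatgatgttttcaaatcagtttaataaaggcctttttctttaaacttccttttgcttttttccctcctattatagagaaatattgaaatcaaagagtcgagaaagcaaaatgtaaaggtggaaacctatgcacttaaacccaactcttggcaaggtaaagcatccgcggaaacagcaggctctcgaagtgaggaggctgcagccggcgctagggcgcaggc
CCDC14: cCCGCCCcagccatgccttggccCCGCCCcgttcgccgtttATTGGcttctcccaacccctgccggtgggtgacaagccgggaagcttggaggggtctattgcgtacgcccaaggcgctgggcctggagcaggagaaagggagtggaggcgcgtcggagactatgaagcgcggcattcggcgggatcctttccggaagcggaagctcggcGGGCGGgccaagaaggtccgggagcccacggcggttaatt
LHX4: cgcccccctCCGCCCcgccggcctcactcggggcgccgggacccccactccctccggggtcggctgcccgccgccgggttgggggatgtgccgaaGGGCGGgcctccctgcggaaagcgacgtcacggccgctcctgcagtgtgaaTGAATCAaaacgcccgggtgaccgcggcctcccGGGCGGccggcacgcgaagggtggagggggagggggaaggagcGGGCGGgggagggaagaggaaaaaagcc
TPH1: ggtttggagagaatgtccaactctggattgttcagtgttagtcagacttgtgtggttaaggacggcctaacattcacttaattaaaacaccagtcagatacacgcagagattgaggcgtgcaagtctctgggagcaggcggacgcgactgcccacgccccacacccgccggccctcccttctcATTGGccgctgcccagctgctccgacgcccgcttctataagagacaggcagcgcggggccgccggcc

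The CFAP70 window held none of these letters. The CCDC14 window held 3 GC boxes and 1 CCAAT box, that of LHX4 4 GC boxes and 1 AP-1 match, and that of TPH1 1 CCAAT box, 67 bases before the start. The 9 genes had 24 such windows in all, and CCDC14, LHX4 and TPH1 had 1 each. A CCAAT box lay in at least 1 window of 6 genes, a GC box in 5, an AP-1 match in 3, a TATA box in 1 (TCF4) and a cyclic AMP response element in 0. Among 35116 promoters of the same length the shares were 32.0%, 42.6%, 6.57%, 10.7% and 1.65%, counted per window, so that a gene with several windows had more chances of a match. The share of G and C in the 24 windows ranged from 34.4% to 80.4%, against a median of 58% over all promoters, and 12 windows lay above that median. The windows therefore had no base composition in common. A match describes letters in a window and is not evidence of binding.

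Counts in genes per library numbered 7792197 to 8897051 in Karpas-422 with A-485 and 6949770 to 8186582 in untreated Karpas-422. They numbered 6689320 to 7086106 in WSU-DLCL2 with A-485, 29669098 to 34904926 in the knockout clones and 21233752 to 37286727 in untreated WSU-DLCL2. The libraries were of 2 kinds by depth and ACTB. ACTB, a gene of all cells, had a level of 3.20 to 31.9 CPM (counts scaled to equal library totals) in the 9 shallow libraries, while the 6 deep ones had 3432 to 9994 CPM. A-485 and library kind cannot be told apart in WSU-DLCL2, where the treated libraries were shallow and the untreated ones deep. In Karpas-422 both groups were shallow. Replicate 3 of untreated WSU-DLCL2 is untreated by its title and treated with A-485 by its treatment entry. It stood apart from replicates 1 and 2, with a chi-square per gene of 201 and 212, against 2.66 between those replicates. Comparisons with untreated WSU-DLCL2 are given with and without it where their call, side or size moved. B cell markers summed to 10115 to 10509 CPM with A-485 and 9769 to 10407 CPM without it in Karpas-422. In WSU-DLCL2 they summed to 3032 to 3693 CPM with A-485, 4942 to 5748 CPM in the clones and 5394 to 7407 CPM untreated. Of the 10 listed, CR2 was at 0 in every group but the clones.

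The levels of the genes in Karpas-422, with A-485 against untreated, came first. Both genes of the cilium and centriole had over 10 times more counts with the compound. CFAP70 stood at 46.8, 49.9 and 51.3 CPM in the A-485 libraries and at 2.81, 1.79 and 1.01 CPM in the untreated ones, which rest on 365, 444 and 441 counts against 23, 14 and 7. The groups were far apart, and the untreated libraries differed more among themselves, relative to their level, than the treated ones. CCDC14 stood at 223, 264 and 268 CPM with A-485 and at 13.6, 12.8 and 12.8 CPM without it. Its untreated libraries were close to each other, so its fold change had a small error.

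Both enzymes stood under 5 CPM in each untreated library. PDE1B stood at 61.6, 57.3 and 55.9 CPM with A-485, against 4.76, 2.69 and 1.44 CPM without it. TPH1 had 28, 36 and 32 counts with A-485, or 3.59, 4.05 and 3.73 CPM, against 7, 2 and 1 counts without it, or 0.855, 0.256 and 0.144 CPM. The groups did not overlap for either gene, and TPH1 was the least abundant of the 9. The splicing factor LUC7L2 stood at 47.6, 50.7 and 51.0 CPM with A-485, against 4.89, 2.18 and 1.30 CPM without it. Its highest untreated library, replicate 1, stood at over 3 times the lowest.

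The transcription factors had smaller ratios. LHX4 stood at 64.8, 56.0 and 65.9 CPM with A-485, against 12.3, 7.55 and 5.61 CPM without it. TCF4 stood at 118, 135 and 126 CPM with A-485, against 23.6, 19.1 and 20.7 CPM without it. For both, the lowest treated library lay well above the highest untreated one. Such separation was common, since 51.2% of 16322 genes with at least 10 counts were apart and higher with A-485 and 16.9% apart and lower. MBP stood at 1965, 1817 and 1828 CPM with A-485, against 242, 222 and 206 CPM without it, and OSBPL9, the lipid transfer protein, at 39.3, 35.6 and 42.8 CPM against 6.96, 3.97 and 3.89 CPM. MBP had the most counts of the 9 in each Karpas-422 library, 1434 in the lowest.

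**Figure D1:**
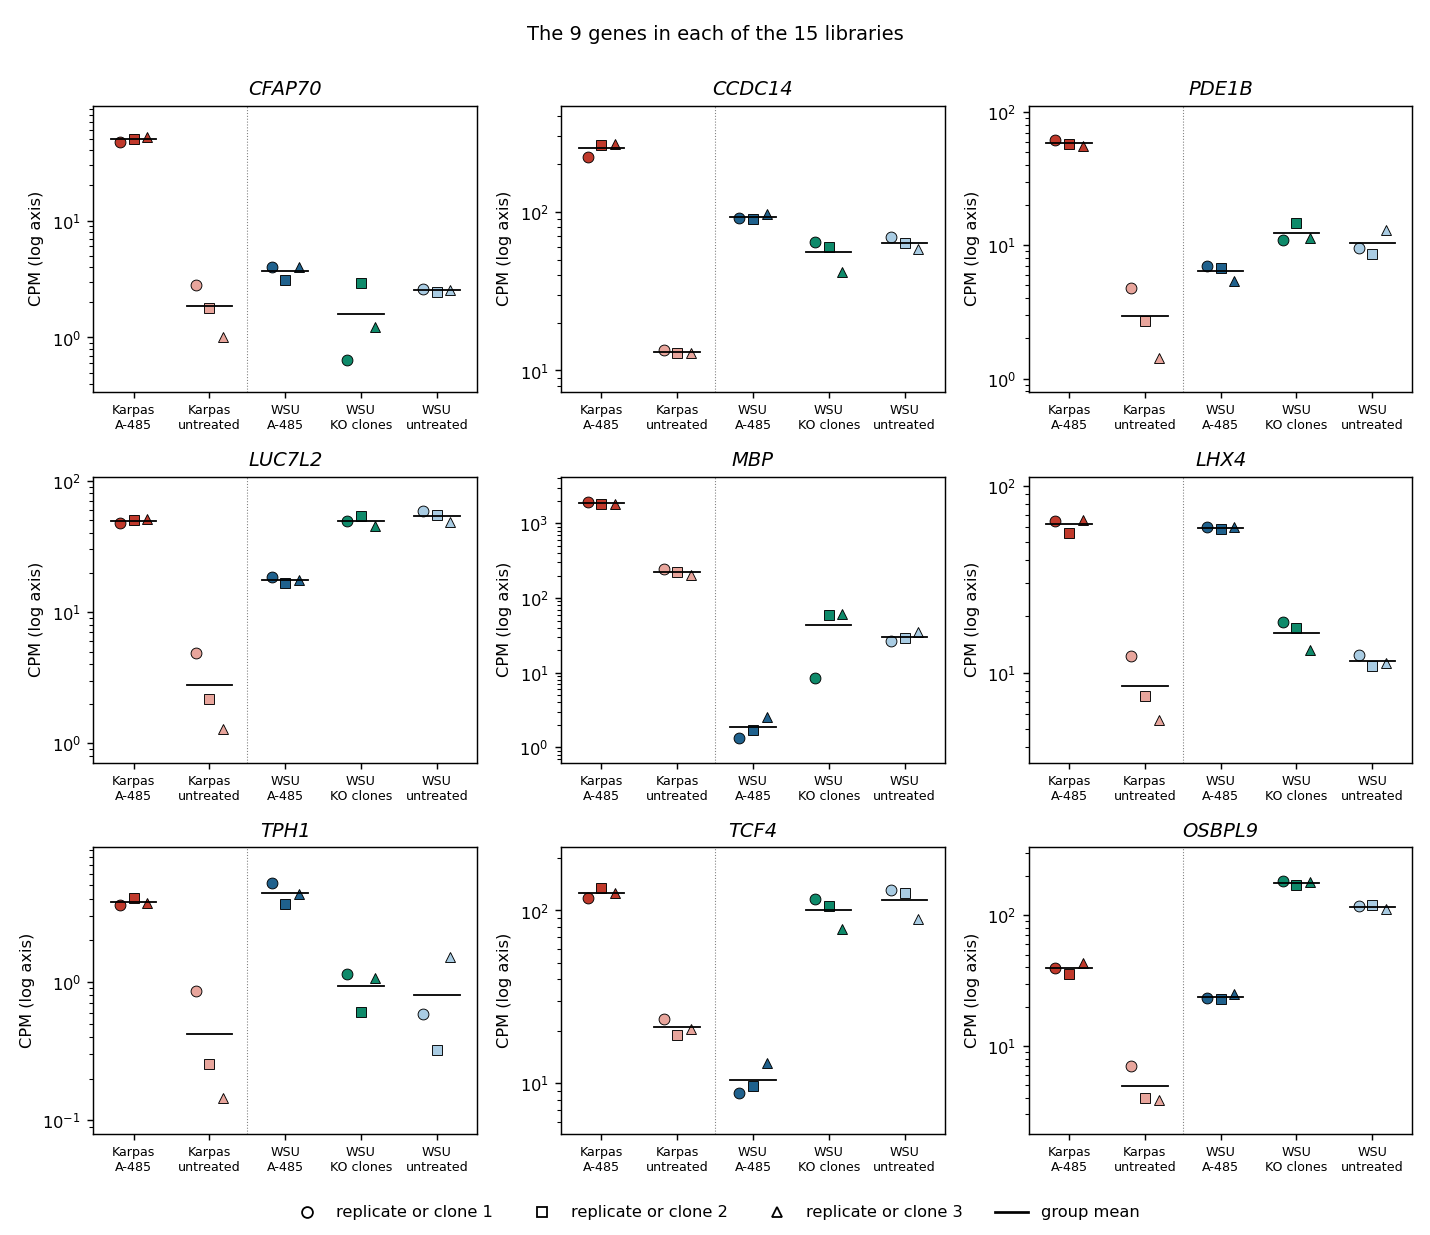
CPM (log axis) of each of the 9 genes in the 15 libraries. Points are libraries, the marker shape is the replicate or clone number, and the black line is the group mean. In Karpas-422 the A-485 libraries lie above the untreated ones for each gene, while in WSU-DLCL2 the A-485 libraries lie above the untreated ones for CFAP70, CCDC14, LHX4 and TPH1 and below them for the other 5.

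After TMM scaling in edgeR, which assumes that most genes do not change, the log2 fold change of A-485 over untreated was 4.28 ± 0.19 (SE, 3 libraries a group, as for the values that follow) for CFAP70, or 19.4-fold. It was 3.86 ± 0.09 for CCDC14, 3.85 ± 0.20 for PDE1B and 3.71 ± 0.23 for LUC7L2. These 4 genes lay between 13.1-fold and 19.4-fold, and the other 5 between 4.51-fold and 6.43-fold. The second class held TPH1 at 2.68 ± 0.40, MBP at 2.66 ± 0.06, OSBPL9 at 2.57 ± 0.17, LHX4 at 2.45 ± 0.18 and TCF4 at 2.17 ± 0.09. The errors were smallest for MBP, TCF4 and CCDC14 and largest for TPH1.

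By log2 fold change, CFAP70 ranked 11 and TCF4 ranked 726 among the 11846 genes tested. The choice had no stated threshold, so the genes just outside it cannot be listed, but 725 genes had a larger fold change than TCF4, the lowest member. The median over the 9 genes was 2.68, against 0.08 over all genes tested. In this fit 4459 of 11846 genes (37.6%) were called higher, with a Benjamini-Hochberg adjusted p under 0.05 in edgeR, and 3998 (33.7%) lower. A further condition of at least 4-fold left 913 genes called higher (7.71%). Of the targets of A-485, EP300, which encodes p300, was not called (0.10 ± 0.13, adjusted p = 0.498, edgeR with Benjamini-Hochberg adjustment), and CREBBP, which encodes CBP, rose by 0.40 ± 0.06 (adjusted p = 5.63e-05, the same test). Before TMM scaling EP300 stood at 1901, 1766 and 1772 CPM with A-485, against 1045, 1340 and 1419 CPM without it. It was thus apart and higher by CPM, as were 51.2% of 16322 genes. As the 9 were chosen on this contrast, nothing is read from their place among these genes. With library sizes alone in place of TMM, 6465 genes were called higher and 2290 lower. That scaling added 0.41 to the median log2 fold change, and the 9 genes then lay between 2.58 and 4.68 in the same order.

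**Figure D2:**
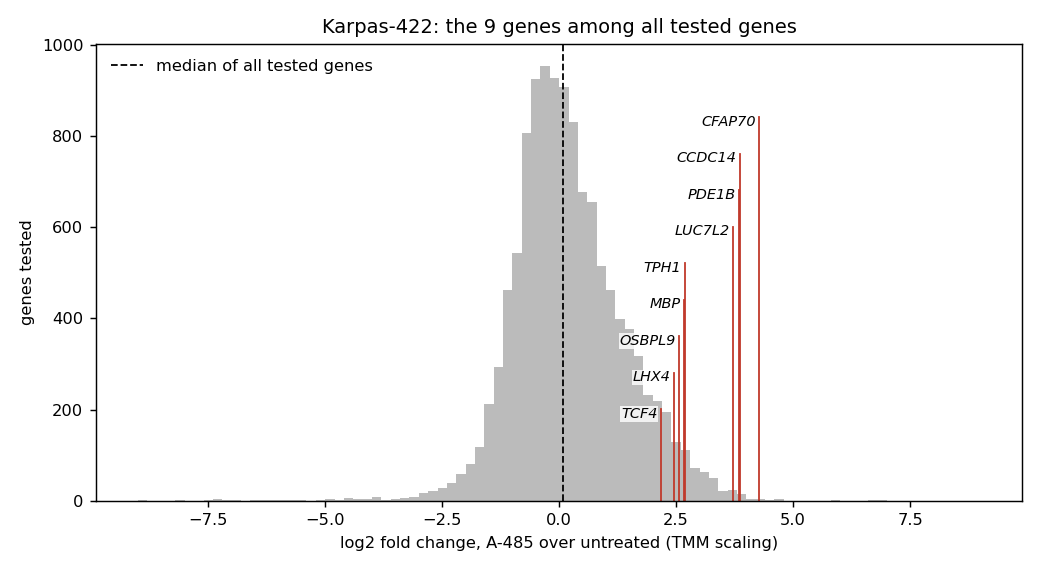
Histogram of the log2 fold change (x axis, A-485 over untreated Karpas-422, TMM scaling) of the 11846 genes tested (y axis, genes in bins of 0.2). The dashed line is the median of all tested genes, at 0.08, and red lines mark the 9 genes, at heights chosen only to separate their names. They fall into 4 genes between 3.71 and 4.28 and 5 genes between 2.17 and 2.68.

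For most of the 9 genes the untreated libraries spread more, relative to their level, than the treated ones. CCDC14 was an exception, at 219 ± 22.3 CPM with A-485 and 15.1 ± 0.111 CPM without it (TMM-scaled mean ± SD). All 9 genes passed the filter on low counts, but CFAP70, LUC7L2 and TPH1 had under 10 counts in at least 1 untreated library, so they could pass through the treated group. By CPM, untreated replicate 1 was the highest of the untreated libraries for 9 of 9 genes. On the TMM scale it was the highest for 8 of 9, against 58.1% of the genes called higher, 22.9% of those called lower and 40.0% of all genes tested. Without that library the fold was 20.7 for LUC7L2 in place of 13.1, and 13.0 for TPH1 in place of 6.43. For the other 7 genes it moved by under 1.5 times, as for CFAP70 with 25.4 in place of 19.4 and TCF4 with 4.69 in place of 4.51. Reads outside annotated genes made up 8.25% to 8.91% of all reads with A-485 and 3.61% to 4.54% without it. Their part in the higher counts of these genes was not tested.

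Several members have neighbours that share their bases. The opposite strand of LHX4 carries ACBD6, which had 74.0, 65.3 and 64.3 CPM with A-485 and 19.1, 9.22 and 9.35 CPM without it. It was called higher, with a log2 difference of 2.02 ± 0.20 (adjusted p = 1.57e-05, edgeR with Benjamini-Hochberg adjustment). NRDC, which overlaps OSBPL9 on the opposite strand, was likewise higher, by 2.40 ± 0.17 (adjusted p = 2.21e-08, edgeR with Benjamini-Hochberg adjustment). PPP1R1A, opposite PDE1B, had 41 counts over the A-485 libraries and 3 over the untreated ones. The sources used here do not give the strand used in counting, so reads of each pair cannot be told apart where they overlap. LUC7L2 shares exons with the readthrough gene FMC1-LUC7L2, which had 0 counts in all 15 libraries. Ambiguous reads, which fit more than 1 gene, stood in a summary line outside the gene counts, at 0.75% to 0.77% of all reads in Karpas-422. Reads in shared exons can fall there, so the 0 does not measure the readthrough gene. The upstream partner FMC1, a mitochondrial assembly factor, fell by 0.73 ± 0.26 (adjusted p = 0.0202, edgeR with Benjamini-Hochberg adjustment), so the gain at LUC7L2 was not seen across both genes.

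The 9 genes were compared with all tested genes on features of their annotation that were not used to choose them. In GENCODE 29 all 9 were longer in total exonic length than the median tested gene, at 5626 to 27828 bases against a median of 4563.5. Their span exceeded the median of 25751.5 bases in 8 of 9, with TPH1 at 24863 the exception. They had 3 to 90 annotated transcripts against a median of 6, and 7 of 9 lay above it. TCF4, with 90 transcripts over 442457 bases, and MBP, with 48 over 154857, were at the top of that range, and LHX4, with 3, at the bottom. The medians are over all tested genes, protein-coding or not, while all 9 members are protein-coding. These counts describe the 9 genes and were not tested. Counts per gene do not say which transcript was made, so the golli and myelin forms of MBP cannot be told apart.

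Per kilobase of exon, the order of levels in Karpas-422 with A-485 ran from MBP at 100.5 CPM per kb through CCDC14 at 22.0 and LHX4 at 10.3 to TPH1 at 0.673. LUC7L2 (7.88 CPM per kb), PDE1B (7.65), CFAP70 (6.65), TCF4 (4.54) and OSBPL9 (4.12) lay between. In untreated Karpas-422 MBP was also first, at 12.0 CPM per kb, and TPH1 last, at 0.0744. Lengths are of all annotated exons, so a gene with many transcripts, such as TCF4, is given a low value per kilobase.

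Markers of other cell types also moved in Karpas-422. MBP is a gene of oligodendrocytes and LHX4 of neurons. The 7 neuron and glia markers read here summed to 25.7 to 31.7 CPM with A-485 and 15.5 to 23.3 CPM without it, higher without overlap, with SNAP25, AQP4 and MOG at 0 in both groups. MBP alone had 1817 to 1965 CPM with A-485 and 206 to 242 CPM without it. Myeloid markers were higher too, at 43.5 to 48.9 CPM with A-485 and 32.2 to 39.9 CPM without it, with S100A8, S100A9 and ITGAM at 0 in both groups. The sums of 4 further lists were lower with A-485. For TCF4, which is high in plasmacytoid dendritic cells, the 7 markers of these cells summed to 11.2 to 13.9 CPM with A-485 and 15.1 to 21.7 CPM without it, with NRP1 and CLEC4C at 0 in both groups. Plasma cell markers summed to 10.4 to 14.1 CPM with A-485 and 25.9 to 30.5 CPM without it. Epithelial and fibroblast markers summed to 186 to 203 CPM with A-485 and 383 to 431 CPM without it, and T and NK cell markers to 549 to 588 CPM and 637 to 682 CPM in the same order. The sums are of CPM without TMM scaling. With library sizes alone the median log2 fold change over all genes tested was 0.49. The higher neuron and glia sums and myeloid sums were not separated from that general shift. The part of these marker shifts in the levels of the 9 genes was not tested.

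Relatives of the 9 genes were listed by family and not by their fold change, so they were tested. The lists were chosen with earlier results of these data known, so these tests are not fully independent of the data. The 9 lists held 146 genes, the members left out, of which 63 could be tested in Karpas-422. Of these, 28 rose, 16 fell and 19 were not called, with a median log2 fold change of 0.25. Over all genes 37.6% were called higher, and the median was 0.08. With library sizes alone 42 were called higher and 7 lower. The lists differed in direction. All adjusted p-values in the next 4 paragraphs are from edgeR with Benjamini-Hochberg adjustment over the 11846 genes, and means are TMM-scaled CPM with SD over 3 libraries.

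Around CFAP70, 8 of 31 listed cilia and flagella genes were tested, of which 3 rose and 2 fell (5 and 0 with library sizes alone). CFAP44, of the axoneme, rose by 3.32 ± 0.35 (adjusted p = 1.21e-06), to 4.64 ± 0.877 CPM against 0.456 ± 0.0516 CPM. CFAP36 rose by 1.37 ± 0.14 (adjusted p = 6.53e-07), while CFAP97 fell by 0.50 ± 0.05 (adjusted p = 4.24e-07) and was not called with library sizes alone. The centriole list of CCDC14 leaned one way. Of 18 genes tested 10 rose and 1 fell, with a median of 0.81 (16 and 0 with library sizes alone). PLK4, the kinase that starts centriole duplication, stood at 30.0 ± 1.91 CPM with A-485 and 8.81 ± 0.451 CPM without it, a rise of 1.76 ± 0.12 (adjusted p = 1.60e-08). The satellite protein CCDC66 rose by 1.44 ± 0.14 (adjusted p = 5.76e-07), and CDK5RAP2, of the pericentriolar material, by 1.55 ± 0.17 (adjusted p = 1.81e-06). PCM1, the scaffold of the satellites, was not called (0.25), though it was with library sizes alone (0.66).

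Of 8 phosphodiesterases tested around PDE1B, 4 rose and 1 fell, with a median of 0.29 (5 and 0 with library sizes alone). PDE8A, which breaks down cyclic AMP, rose by 3.17 ± 0.47 (adjusted p = 3.22e-05) from a low level, 1.93 ± 0.263 CPM with A-485 against 0.197 ± 0.0636 CPM without it. PDE8B rose by 0.77 ± 0.20 (adjusted p = 0.00322). PDE6D, a prenyl-binding chaperone despite its name, fell by 0.30 ± 0.06 (adjusted p = 0.000400), and with library sizes alone its value was 0.11 and not called. Around TPH1 the direction was the opposite. The 6 genes tested were all of the synthesis or recycling of tetrahydrobiopterin, the cofactor of TPH1, and no listed gene of serotonin handling could be tested. Of the 6, 1 rose and 5 fell, with a median of −1.06. GCH1, the first enzyme of cofactor synthesis, fell by 1.38 ± 0.18 (adjusted p = 7.78e-06), and SPR, the last, by 3.57 (adjusted p = 4.02e-05). PCBD1, which recycles the cofactor, fell by 0.94 ± 0.07 (adjusted p = 1.64e-08). PTS, the middle enzyme, rose by 2.60 ± 0.24 (adjusted p = 3.36e-07), to 7.99 ± 1.14 CPM against 1.31 ± 0.0787 CPM. With library sizes alone 1 rose and 3 fell in that list.

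The list of LUC7L2 had the highest median, 1.61, with 6 of 10 tested genes higher and 3 lower (7 and 2 with library sizes alone). RBM25, a splicing regulator that associates with U1, stood at 206 ± 18.3 CPM with A-485 and 29.5 ± 5.17 CPM without it, a rise of 2.79 ± 0.11 (adjusted p = 4.22e-10). The paralog LUC7L3 rose by 1.86 ± 0.10 (adjusted p = 1.28e-08), LUC7L by 1.80 (adjusted p = 4.00e-05), and TIA1, which helps U1 bind weak splice sites, by 1.86 ± 0.11 (adjusted p = 2.70e-09). The core U1 proteins split, with SNRNP70 higher (1.46, adjusted p = 0.00476) and SNRPA (−1.24, adjusted p = 5.89e-06) and SNRPC (−1.18, adjusted p = 1.17e-06) lower. These U1 proteins, LUC7L, SPR and PCM1 were singled out after their values were seen. LUC7L2 and its paralogs are similar in sequence. Reads without a unique alignment stood in a summary line, outside the gene counts. In Karpas-422 they made up 48.8% to 49.0% of all reads with A-485 and 54.5% to 55.5% without it. How many of them came from these paralogs is not known.

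Few relatives of the transcription factors could be tested. Of 3 LIM homeobox genes and cofactors tested, none (0) rose. ISL2 fell by 0.78 ± 0.22 (adjusted p = 0.00536) and was not called with library sizes alone, and the cofactors LDB1 (0.51 ± 0.32, adjusted p = 0.170) and LMO4 (−0.23 ± 0.17, adjusted p = 0.238) were not called. With library sizes alone LDB1 was called higher (0.91). That list had a median of −0.23, which turned to 0.17 with library sizes alone. Of the E proteins, TCF3 fell by 1.57 ± 0.30 (adjusted p = 0.000311), and TCF12 was not called (0.15 ± 0.09, adjusted p = 0.158). With library sizes alone TCF12 was called higher (0.56). Of 12 myelin genes only CNP could be tested, at 30.4 ± 1.09 CPM with A-485 and 28.2 ± 4.16 CPM without it, and it was not called (adjusted p = 0.394), except with library sizes alone (0.52). Of 7 relatives of OSBPL9 tested 4 rose and 2 fell, with a median of 1.07 (5 and 1 with library sizes alone). OSBPL7 rose by 2.96 ± 0.31 (adjusted p = 1.27e-06), OSBPL10 by 1.14 ± 0.13 (adjusted p = 3.13e-06) and OSBPL3 by 1.76 ± 0.21 (adjusted p = 3.67e-06).

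**Figure D3:**
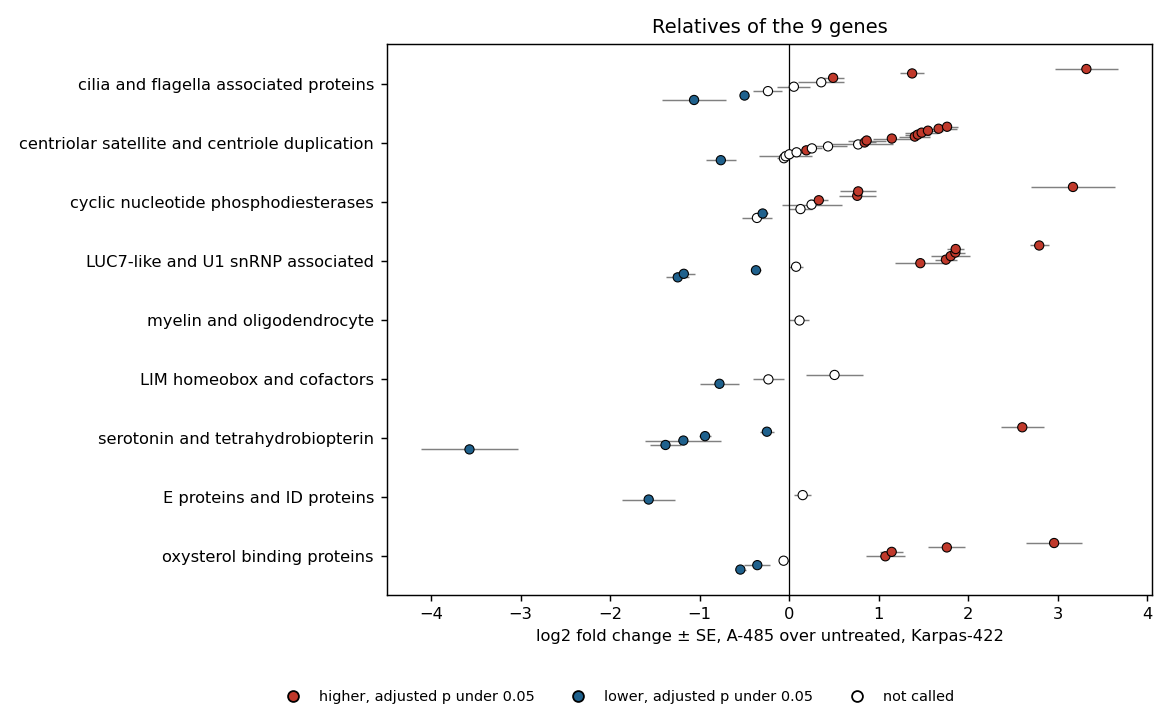
Log2 fold change (x axis, A-485 over untreated Karpas-422, TMM scaling) of the 63 tested relatives of the 9 genes, by list (y axis); bars are SE. Red points were called higher (28 genes), blue lower (16) and white not called (19). Points of the LUC7-like, centriole and oxysterol lists lie mostly right of 0 and those of the serotonin and tetrahydrobiopterin list left of it; with library sizes alone all points move right by about 0.41 and 42 are called higher and 7 lower.

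The same genes were then read in WSU-DLCL2 with A-485, where libraries of the same kind as in Karpas-422 were made. Set beside treated Karpas-422, 7 of the 9 genes were lower in treated WSU-DLCL2 without overlap, and LHX4 and TPH1 overlapped. Over 17190 genes with at least 10 counts, 38.6% were apart and lower and 28.4% apart and higher. LHX4 stood at 60.1, 58.7 and 60.0 CPM in treated WSU-DLCL2, against 64.8, 56.0 and 65.9 CPM in treated Karpas-422. TPH1 stood at 5.23, 3.67 and 4.32 CPM, against 3.59, 4.05 and 3.73 CPM. The widest gap was at MBP, with 1.35, 1.69 and 2.53 CPM in treated WSU-DLCL2, on 9, 12 and 17 counts. Against untreated Karpas-422, treated WSU-DLCL2 was higher for 7 genes and lower for MBP and TCF4, while 45.5% of 16211 genes were apart and higher and 22.4% apart and lower. These are differences between lines, and the part of the library differences in them was not tested. The compound cannot be told apart from the line in the second comparison.

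Against untreated WSU-DLCL2 the treated libraries of that line were higher for 4 genes and lower for 5, with no overlap for any of the 9 (0 overlaps). Among all 20373 genes with at least 10 counts, the libraries were apart and higher for 29.8% and apart and lower for 45.9%, so complete separation was common between these library kinds. No test was made, since A-485 and library kind cannot be told apart here. LHX4 had 5.17 times the untreated mean, at 12.5, 10.9 and 11.3 CPM in the untreated line. TPH1 had 5.47 times the untreated mean, at 0.587, 0.322 and 1.51 CPM in the untreated line, and 9.69 times without untreated replicate 3. Replicate 3 was the highest of the untreated libraries for TPH1. CCDC14 stood at 91.5, 90.7 and 96.3 CPM with A-485, against 69.6, 63.5 and 58.1 CPM without it, 1.46-fold. CFAP70 stood at 4.04, 3.11 and 4.02 CPM with A-485, against 2.61, 2.47 and 2.54 CPM without it, also 1.46-fold. So LHX4 and TPH1 differed by 5-fold or more between these libraries, and both genes of the cilium and centriole by much less than in Karpas-422.

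The genes lower in treated WSU-DLCL2 were PDE1B, LUC7L2, OSBPL9, TCF4 and MBP. PDE1B stood at 7.03, 6.77 and 5.36 CPM with A-485, against 9.49, 8.66 and 13.1 CPM without it, a ratio of 0.613. LUC7L2 stood at 18.5, 16.7 and 17.4 CPM with A-485, against 59.3, 54.6 and 48.9 CPM without it. OSBPL9 stood at 23.2, 22.7 and 24.9 CPM with A-485, against 117, 119 and 113 CPM without it, a ratio of 0.203. For these genes the treated libraries were tight and below every untreated one. NRDC, opposite OSBPL9, was also lower, at 21.2, 17.8 and 18.2 CPM with A-485 against 339, 342 and 279 CPM without it. PPP1R1A, opposite PDE1B, had only 4 counts over the treated libraries and 8 over the untreated ones. TCF4 stood at 8.82, 9.60 and 13.1 CPM with A-485, against 132, 125 and 89.1 CPM without it, a ratio of 0.0909. MBP had the lowest ratio, 0.0609, with 26.9, 29.4 and 35.1 CPM without A-485. Leaving out untreated replicate 3 changed the side of no gene (0 of 9). Scaling all 15 libraries together with TMM changed none either (0 of 9).

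Over all 5 groups, the treated Karpas-422 libraries had the highest mean CPM for 6 of the 9 genes. TPH1 was highest in treated WSU-DLCL2, LUC7L2 in untreated WSU-DLCL2 and OSBPL9 in the clones. For LUC7L2 and TCF4 the treated Karpas-422 libraries overlapped untreated WSU-DLCL2, at 47.6 to 51.0 CPM against 48.9 to 59.3 CPM for LUC7L2 and 118 to 135 CPM against 89.1 to 132 CPM for TCF4. Untreated Karpas-422 was the lowest group for CCDC14, PDE1B, LUC7L2, LHX4, TPH1 and OSBPL9. It overlapped the next group, untreated WSU-DLCL2, for LHX4 and TPH1. The groups are of 2 library kinds, so the order across kinds is a description.

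The clones labelled BCL11A knockout, against untreated WSU-DLCL2, gave the one test of the 9 genes on libraries that did not serve to choose them, in libraries of 1 kind. BCL11A, a zinc finger repressor of the B lineage, had 58.8, 69.6 and 51.9 CPM in the 3 clones, against 46.8, 45.7 and 73.5 CPM in the untreated line. That difference of 0.13 ± 0.21 was not called (adjusted p = 0.915, edgeR with Benjamini-Hochberg adjustment), so the RNA does not check the labels. Without untreated replicate 3 the clones lay above both remaining libraries, and the difference was 0.37 ± 0.12 and not called (adjusted p = 0.177, the same test). Loss of BCL11A cannot be told apart from differences that come with cloning. In Karpas-422, BCL11A fell by 1.33 ± 0.06 with A-485 (adjusted p = 1.65e-10, edgeR with Benjamini-Hochberg adjustment), at 75.1, 76.0 and 74.6 CPM against 147, 134 and 148 CPM.

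No gene of 16152 was called in the clones by edgeR with Benjamini-Hochberg adjustment (0 called, 0%), with 1117 at an unadjusted p under 0.05, while DESeq2 called 315. Of the 9 genes 0 were called by edgeR, 2 had an unadjusted p under 0.05, and DESeq2 called 1. Without untreated replicate 3, 5 of the 9 had an unadjusted p under 0.05, as had 3150 of 16607 genes. OSBPL9 stood at 182, 171 and 180 CPM in the clones, against 117, 119 and 113 CPM in the untreated line. The clones lay above the untreated libraries without overlap. The log2 fold change was 0.62 ± 0.11 (adjusted p = 0.206 in edgeR, and 1.64e-05 in DESeq2, both with Benjamini-Hochberg adjustment). Without untreated replicate 3 it was 0.58 ± 0.07 and was called (adjusted p = 0.0201, edgeR with Benjamini-Hochberg adjustment). In that fit 70 of 16607 genes (0.422%) were called higher and 281 (1.69%) lower, so the call on OSBPL9, 1 of 9, depends on whether that library is used.

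LHX4 was the other gene whose groups did not overlap, so 2 of the 9 were apart, both higher. Over 21412 genes, 7.51% were apart and higher and 8.49% apart and lower. It stood at 18.6, 17.3 and 13.3 CPM in the clones, against 12.5, 10.9 and 11.3 CPM in the untreated line. Its log2 fold change of 0.51 ± 0.18 was not called (adjusted p = 0.650, edgeR with Benjamini-Hochberg adjustment), nor was it without replicate 3 (adjusted p = 0.203). MBP differed most among the clones, at 8.60, 58.9 and 61.9 CPM in clones 1, 2 and 3, against 26.9, 29.4 and 35.1 CPM in the untreated line. Clone 1 lay below every untreated library and clones 2 and 3 above every one, so the mean difference of 0.51 ± 0.64 (adjusted p = 0.895, edgeR with Benjamini-Hochberg adjustment, and 0.745 without replicate 3) averages over opposite values. CFAP70 also differed among clones, at 0.640, 2.92 and 1.22 CPM, against 2.61, 2.47 and 2.54 CPM in the untreated line, and its difference was −0.67 ± 0.53 (adjusted p = 0.866, edgeR with Benjamini-Hochberg adjustment, and 0.569 without replicate 3).

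The remaining 5 genes overlapped between the clones and the untreated line when all 3 untreated libraries were used. The clones had 64.7, 60.0 and 42.0 CPM of CCDC14 and 49.6, 53.6 and 45.6 CPM of LUC7L2, with log2 fold changes of −0.20 ± 0.18 and −0.13 ± 0.13. TCF4 stood at 116, 106 and 78.0 CPM in the clones, with −0.21 ± 0.21, and PDE1B at 10.9, 14.7 and 11.3 CPM, with 0.24 ± 0.22. TPH1 had 34, 21 and 36 counts in the clones and 20, 12 and 32 in the untreated line, with 0.28 ± 0.60. Without replicate 3 the values were 1.04 ± 0.43 for TPH1, 0.43 ± 0.16 for PDE1B, −0.37 ± 0.15 for TCF4, −0.21 ± 0.08 for LUC7L2 and −0.27 ± 0.17 for CCDC14. None of these 5 was called (adjusted p of 0.875 to 0.934 in edgeR with Benjamini-Hochberg adjustment), and none without replicate 3 either (adjusted p of 0.233 to 0.454). Without replicate 3, a choice made after seeing the data, 4 of these 5 no longer overlapped. PDE1B and TPH1 were higher in the clones, at 10.9 to 14.7 CPM against 8.66 to 9.49 CPM for PDE1B and 0.602 to 1.15 CPM against 0.322 to 0.587 CPM for TPH1. LUC7L2 and TCF4 were lower in the clones, at 45.6 to 53.6 CPM against 54.6 to 59.3 CPM for LUC7L2 and 78.0 to 116 CPM against 125 to 132 CPM for TCF4. With LHX4 and OSBPL9, 4 of the 9 genes were then apart and higher and 2 apart and lower, while 19.9% of 20725 genes were apart and higher and 18.1% apart and lower. The median over the 9 genes was 0.24, against −0.01 over all genes tested, and without replicate 3 it was 0.43, against 0.02.

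Of the relatives of the 9 genes, 88 could be tested in the clones and 0 were called by edgeR, with 8 at an unadjusted p under 0.05 and 4 called by DESeq2. The unadjusted count was 20 without replicate 3. Without untreated replicate 3, 4 were called lower and 0 higher. These were the phosphodiesterases PDE7B, PDE4B and PDE9A and the lipid transfer gene OSBPL6, named because of their values. PDE9A had 63, 35 and 19 counts in the clones, against 340 and 380 in untreated replicates 1 and 2, a log2 difference of −3.05 (adjusted p = 0.0466, edgeR with Benjamini-Hochberg adjustment). OSBPL6 had 8, 1 and 8 counts against 122 and 106, and 13 in replicate 3 (adjusted p = 0.0270, the same test). The other two rest on few counts. PDE7B had 0 counts in each clone against 19 and 23 (adjusted p = 0.0399), and PDE4B had 0, 3 and 2 against 25 and 25 (adjusted p = 0.0428). PDE1B itself was 0.43 ± 0.16 in the same fit (adjusted p = 0.233), so it did not share the direction of the 3 phosphodiesterases, and OSBPL9 was higher where OSBPL6 was lower.

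**Figure D4:**
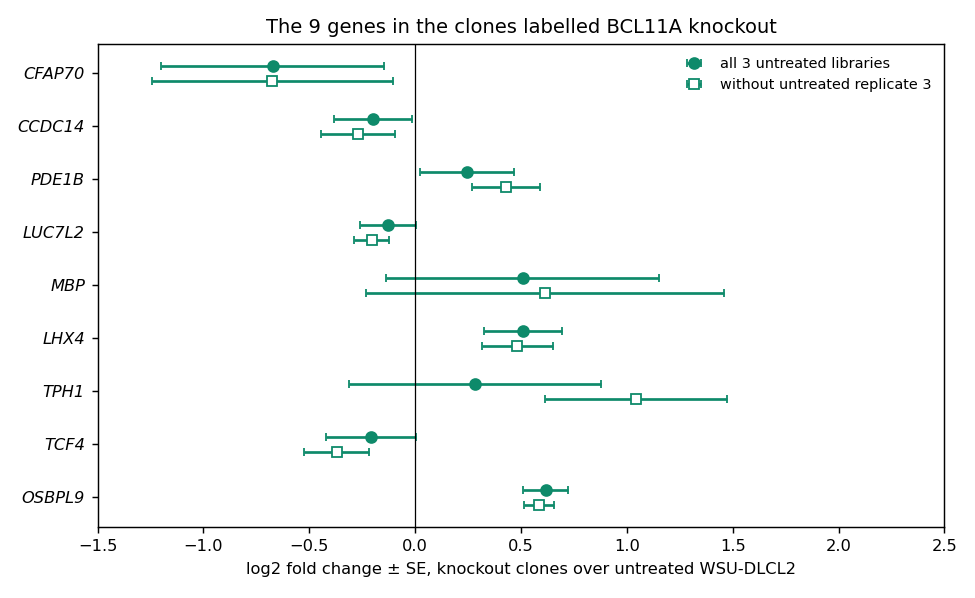
Log2 fold change ± SE (x axis, clones labelled BCL11A knockout over untreated WSU-DLCL2) of the 9 genes (y axis). Filled circles use all 3 untreated libraries, and open squares leave out untreated replicate 3. OSBPL9 lies at 0.62 with a short bar and at 0.58 without replicate 3, while the bars of MBP and TPH1 are the widest with all libraries.

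The genes most like each member were sought by Pearson's r of log2(CPM + 1) over the 15 libraries among 10658 protein-coding genes. CFAP70 was most like MAP3K12 (r = 0.989), CCDC14 like BBIP1 (0.990) and PDE1B like ZNF337 (0.969). LUC7L2 was most like TRAPPC13 (0.993), OSBPL9 like METTL17 (0.993) and FKBP15 (0.993), and TCF4 like C8orf82 (0.982). MBP was most like INO80C (0.961). LHX4 and TPH1 had the same nearest gene, MRPS14, at 0.971 and 0.961. The 15 points share the line and the library kind, so these values describe likeness in these libraries.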

How the data were processed

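RNA of 2 lymphoma lines was sequenced by the authors, who deposited raw counts of reads per gene for 15 libraries. The tools were STAR 2.5.3a and RSEM and the build GRCh37 (hg19), per the submitters' processing notes. The rule that set the comparisons calls the files htseq count files. The sources used here give no annotation or strand. Each file held 63677 Ensembl genes and 5 summary lines. Those lines were 60.9% to 70.2% of all reads in the 9 libraries of Karpas-422 and treated WSU-DLCL2 and 27.3% to 29.7% in the other 6, and stayed out of library sizes and tests. For untreated WSU-DLCL2 replicate 3, 3 runs share 1 file and were used as 1 library, grouped by title. No replicate pair was merged (lowest chi-square per gene 1.20, between A-485 replicates 2 and 3 of Karpas-422). Lengths and transcripts came from GENCODE 29, by identifier. Symbols came from a reference list of gene names, or from GENCODE 29 where that list had none, and covered 52526 genes.

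Comparisons were fitted over all genes with edgeR 4.0.16 in R 4.3.3 (TMM, filterByExpr, robust quasi-likelihood, two-sided, Benjamini-Hochberg adjustment, threshold 0.05), on the groups compared. SE is the fold change over the square root of F. CPM per library are not TMM-scaled. Counts are of reads, and SE and p-values cover counting error and the spread between libraries, which may be technical. The fit was checked on simulated counts. Replicate numbers did not pair Karpas-422 libraries (correlations of deviations 0.01, 0.06 and −0.04), nor clones with untreated libraries (0.10, 0.03 and 0.22). Alternatives were DESeq2 1.42.0, library sizes alone, no filter, a replicate block and each library left out. Leaving out replicate 3 in the description of WSU-DLCL2 with A-485, and in the overlap of the clones, was chosen after seeing the data. The 9 genes and all lists were chosen with earlier results of these data known. The named relatives were the 3 with the smallest p in each list, beside those said to be singled out by value, and like genes the 2 with the highest r per member, at a mean of at least 1 CPM. A cell type marker is not reported here.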

Additional observations from a re-analysis of the deposited data

Results flagged for a closer look

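For 5 of the 9 genes the A-485 libraries lay above the untreated ones in Karpas-422 and below them in WSU-DLCL2, without overlap. All 9 were chosen as higher in Karpas-422, so this counts the genes apart and lower in WSU-DLCL2. Over all 20373 genes with at least 10 counts in that line, 45.9% were apart and lower, so nothing particular to the 9 is read from the count. As log2 ratios of mean CPM, A-485 over untreated, PDE1B was −0.71 in WSU-DLCL2 and 4.30 in Karpas-422, and LUC7L2 was −1.63 and 4.16 in the same order. MBP was −4.04 in WSU-DLCL2 and 3.06 in Karpas-422. TCF4 was −3.46 in WSU-DLCL2 and 2.58 in Karpas-422, and OSBPL9 was −2.30 and 2.99. The differences between lines were not tested. In WSU-DLCL2 the treated and untreated libraries are of different kinds, which cannot be told apart from the compound, and the Karpas-422 values served to choose the genes. Without untreated replicate 3 the WSU-DLCL2 values kept their sign, with PDE1B at −0.51 and MBP at −3.92.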

How the results depend on the processing

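With library sizes alone, Karpas-422 had 2290 genes called lower in place of 3998, and 7 relatives of the 9 genes in place of 16; the shift of 0.41 is part of that scaling. In the clones DESeq2 called 315 genes and 1 of the 9 (OSBPL9), and without a filter on low counts edgeR called 20 genes; the cause was not tested. Leaving out each library in turn gave 0 to 351 genes and 0 to 1 of the 9 called in the clones, the highest without untreated replicate 3, and 7907 to 8840 genes called in Karpas-422 (4158 to 4714 higher, 3743 to 4126 lower) and 42 to 46 relatives (28 to 31 higher, 14 to 16 lower). TPH1 in the clones turned to −0.10 without untreated replicate 2 (adjusted p = 0.960, edgeR with Benjamini-Hochberg adjustment), and leaving out 1 library at a time its values ran from −0.10 to 1.04. With the replicate block, edgeR called 8250 genes in Karpas-422 (4346 higher and 3904 lower), 43 relatives (28 higher and 15 lower), and 0 genes and 0 of the 9 in the clones; it changed no call on the 9 genes. The fold changes of the 9 genes in Karpas-422 kept their sign in every alternative run. Their choice for large rises in that contrast left little room for another outcome, so nothing is read from this. Depth limits CFAP70, LUC7L2 and TPH1, with under 10 counts in at least 1 untreated Karpas-422 library.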
